A study of Homo sapiens with 22 samples.

Results

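Cohesin sites without CTCF are described here in K562, a human leukemia cell line, before and after 72 h of PMA. A site is a region of the deposited Rad21 table, on chromosomes 1 to 22 or X, that overlapped by at least 1 bp a peak of each of the 4 Rad21 libraries and no peak of any of the 6 CTCF libraries. Of 109111 Rad21 regions, 107902 lay on these chromosomes, 9141 of them had a Rad21 peak in all 4 libraries, and 1320 were cohesin sites without CTCF. For comparison, 3477 regions had a peak in all 4 Rad21 and all 6 CTCF libraries and are called cohesin sites with CTCF. PMA, a phorbol ester, was given at 25 nM to push the wild-type line toward a megakaryocyte-like state. Fixed cells were profiled with antibodies to H3K27ac, Jun and CTCF at 0, 6 and 72 h and to Rad21 at 0 and 72 h, which made 22 libraries in 11 groups of 2 replicates. The assay is abbreviated CNR in the titles and was taken as CUT&RUN, in which an antibody directs a nuclease to cut out the DNA beside its target. The labels do not say whether replicates came from separate cultures, so p-values measure only the spread between these libraries.

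Cohesin is a ring-shaped complex, of which Rad21 is the closing subunit, that travels along chromatin and extrudes loops. CTCF is a DNA-binding protein at which the travelling ring tends to halt, so most strong cohesin peaks in mammalian cells lie on CTCF motifs. Cohesin peaks away from CTCF have been described mainly at active promoters and enhancers and near the ring's loading factor NIPBL. H3K27ac, the acetylated lysine of histone H3, marks such active elements. Jun is a subunit of AP-1, a transcription factor that PMA induces through protein kinase C.

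The promoter sequences of 3 sites are shown because their genes belong to the themes of this treatment. JUND encodes an AP-1 subunit, ITGA2B the platelet integrin alpha chain and SMC1A a core subunit of the cohesin ring itself, which shares its start region with RIBC1. Each is the stretch before the gene's start, from RefSeq (GRCh38.p14), 5′ to 3′ on the gene's strand. They lie at chr19:18281623-18281872 on the minus strand (JUND), chr17:44389650-44389899 on the minus strand (ITGA2B) and chrX:53422729-53422872 on the plus strand (RIBC1). Capitals mark matches on either strand to 6 motifs, namely TGANTCA (AP-1), AGATAA (bound by GATA factors), CCGGAAG (ETS), TGACGTCA (CRE), GGGCGG (SP/KLF) and the palindromic NRF1 consensus. None of these strings contains another.
JUND: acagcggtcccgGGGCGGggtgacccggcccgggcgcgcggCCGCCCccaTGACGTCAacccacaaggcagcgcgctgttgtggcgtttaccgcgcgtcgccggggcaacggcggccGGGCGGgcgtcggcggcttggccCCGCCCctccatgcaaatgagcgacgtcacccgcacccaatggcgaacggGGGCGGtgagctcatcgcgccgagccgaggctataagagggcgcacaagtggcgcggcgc
ITGA2B: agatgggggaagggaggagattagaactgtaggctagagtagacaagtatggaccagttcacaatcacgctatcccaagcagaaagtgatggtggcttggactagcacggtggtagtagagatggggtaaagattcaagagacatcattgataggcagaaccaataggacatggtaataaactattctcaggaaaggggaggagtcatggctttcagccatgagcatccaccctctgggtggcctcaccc
RIBC1: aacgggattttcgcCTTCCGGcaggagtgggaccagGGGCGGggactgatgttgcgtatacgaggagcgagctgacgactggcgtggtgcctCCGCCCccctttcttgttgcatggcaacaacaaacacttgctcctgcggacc
The JUND stretch holds 1 CRE string and 5 SP/KLF strings, the RIBC1 stretch 1 ETS string and 2 SP/KLF strings, and the ITGA2B stretch none of the 6. A match of letters is a description of the sequence and not a bound site.

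H3K27ac libraries held 12634261 to 27266241 counts over the regions of their table, Jun libraries 4766421 to 18883962, CTCF libraries 2553677 to 6068421 and Rad21 libraries 4398797 to 7285286. Jun was shallowest at 6 h and deepest at 72 h in both replicates. A site held a median of 83 and 55 Rad21 counts in the libraries at 0 h and 80 and 62 at 72 h, with a lowest value of 10. Levels below are CPM, the usual scaling of a region's count to its library's total, here after TMM scaling, and where levels of different regions are set side by side they are given per kb. Replicates of a group differed by more than counting noise, so none was a repeat of another.

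The peak rule has close neighbours on both sides. The weakest of a site's 4 Rad21 peaks had a −log10 q of 2.23 at the lowest, 6.07 at the median and 231 at the highest. Just outside lay 2181 regions with no CTCF peak and a Rad21 peak in 3 of 4 libraries, of which 990 missed only the second replicate at 72 h. On the CTCF side, 1496 regions with all 4 Rad21 peaks had a CTCF peak in exactly 1 library, and in 1125 of them it was the second replicate at 72 h, the deepest CTCF library. Over all 1496 regions, whichever library held it, the single peak had a median −log10 q of 6.59. Peaks of the deepest library alone had a median of 45.5 at cohesin sites with CTCF. Without that library the rule found 2445 sites, and without the second Rad21 replicate at 72 h it found 2310.

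Rad21 signal at the sites was slightly below that at cohesin sites with CTCF. Peaks of Rad21 and CTCF chose the sites, so these levels are a description. The median level per kb was 20.3 and 17.7 CPM at 0 h and 18.1 and 17.6 CPM at 72 h, against 24.6, 22.3, 20.6 and 20.1 CPM at cohesin sites with CTCF. Sites were a median of 643 bp wide (229 to 2642) and the sites with CTCF 633 bp. CTCF counts could be read at 636 regions of the CTCF table that overlapped a site, where the median level per kb was 9.91 and 8.32 CPM at 0 h, 13.6 and 7.42 at 6 h, then 16.8 and 14.8 at 72 h. At cohesin sites with CTCF it lay between 41.7 and 55.6 CPM in the 6 libraries. CTCF signal was therefore low but not at 0, and 603 of the 1320 sites (45.7%) overlapped a region of the CTCF table although no peak was called there. The nearest CTCF peak of any library was a median of 7984 bp away, and 162 sites (12.3%) had one within 1 kb.

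The sites with the highest Rad21 level per kb were of different kinds. The highest, chr1:143221429-143221669, lies outside any listed gene span and 87287 bp from the nearest listed gene start, and how uniquely reads map there was not tested. Rad21 stood at 212 and 302 CPM there at 0 h and at 238 and 299 CPM at 72 h. CTCF stood at 196 and 147 CPM at 0 h, 325 and 143 at 6 h, then 221 and 166 at 72 h without a called peak, so this site goes against the name of the class. Jun at the same place was 145 and 123 CPM at 0 h and 36.1 and 27.3 CPM at 72 h, with both later libraries below both earlier ones. Next came the start of ARRDC3, an arrestin-domain gene that it shares with ARRDC3-AS1, where 3 separate sites follow each other on chromosome 5. At the first of them (chr5:91379942-91380627) Rad21 was 219 and 197 CPM at 0 h and 115 and 110.1 CPM at 72 h. The other 2 moved from 86.3 and 74.7 CPM to 39.1 and 32.6, and from 75.3 and 57.4 CPM to 37.5 and 31.7. At each of the 3, the libraries at 72 h lay below those at 0 h. The third highest site (chr6:27836962-27837880) overlaps the histone gene H2AC15, with the start of H2BC15 within 1 kb, and had Rad21 at 201 and 137 CPM at 0 h and 95.7 and 107 CPM at 72 h.

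Cohesin sites without CTCF were acetylated and Jun-bound more often than cohesin sites with CTCF, most of all away from gene starts. An H3K27ac peak overlapped 84.2% and 85.8% of them in the libraries at 0 h, 75.6% and 79.4% at 6 h, then 89.6% and 88.4% at 72 h, while sites with CTCF lay between 32.8% and 42.3%. The difference averaged 47.6 percentage points (SD 4.65, n = 6 libraries), was between 40.2 and 52.7 points and had the same direction in 6 of 6 libraries. Jun peaks overlapped 84% and 85.5% at 0 h, 50.8% and 65.2% at 6 h, then 89% and 88.9% at 72 h. The Jun difference from sites with CTCF averaged 26.9 points (SD 8.73, n = 6 libraries), between 12.9 and 36.6 points, again in 6 of 6 libraries. Within 1 kb of a listed gene start the H3K27ac shares at 0 h were 94.5% and 95.3%, against 82.2% and 81.6% with CTCF. Farther away they were 77.7% and 79.9%, against 24.3% and 24.7%. Jun near a start stood at 84% and 84.4% at 0 h, against 70.3% and 70.5%. In the first Jun replicate at 6 h the order near a start was reversed, at 44.5% against 46.7%. An exact two-sided sign-flip permutation test over libraries gave p = 0.0312 for each antibody (Benjamini-Hochberg adjusted over both, 0.0312). That is the smallest p that 6 libraries can give. The same regions were read in each of the 6 libraries, so the libraries are repeated readings and not independent samples of sites. The p-value therefore describes only a direction that was the same in each library. Whether the classes differ beyond the spread between sites was not tested. A peak of both antibodies in all 12 libraries was found at 453 sites (34.3%), and 28 sites had none of either.

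**Figure D1:**
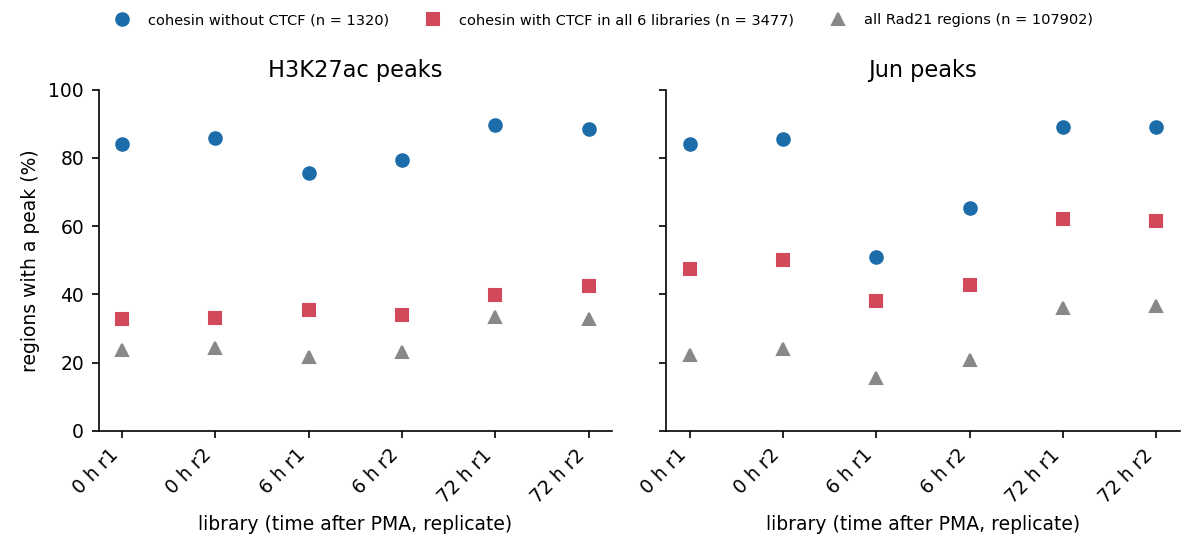
Share of regions (%, vertical axis) overlapping an H3K27ac peak (left) or a Jun peak (right) in each library (horizontal axis: hours after PMA and replicate), for 1320 cohesin sites without CTCF (circles), 3477 with CTCF in all 6 libraries (squares) and all 107902 Rad21 regions (triangles). Circles lie above squares and squares above triangles in all 12 libraries, and Jun circles are lowest at 6 h, at 50.8% and 65.2%.

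Sites with an H3K27ac peak in both libraries went from 82.9% at 0 h through 71.7% at 6 h to 87.1% at 72 h. For Jun the same share went from 80.2% through 45.9% to 86.3%, and 183 sites (13.9%) had Jun peaks in both libraries at 0 and 72 h and in none at 6 h. The Jun libraries at 6 h also had the lowest totals (4766421 and 5531183 counts) and those at 72 h the highest (17245043 and 18883962), and the part of depth in this dip was not tested. Counts, which are scaled for depth, are compared further on and did not return at 72 h.

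How far the class depends on the number of CTCF peaks was read from all regions with 4 Rad21 peaks, a split chosen after the values were seen. With CTCF peaks in 0, 1, 2, 3, 4, 5 and 6 libraries, the share with H3K27ac peaks in both libraries at 0 h was 82.9%, 87.4%, 80.1%, 65.9%, 45.3%, 39% and 29.1%. Jun shares for the same groups were 80.2%, 87%, 86%, 78.8%, 74%, 71.8% and 44.2%. Regions with a CTCF peak in 1 or 2 libraries thus had values near those of the sites, and the H3K27ac share was lower from 3 libraries on. Regions with 3 Rad21 peaks and no CTCF peak had 72.7% and 69.1%.

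**Figure D2:**
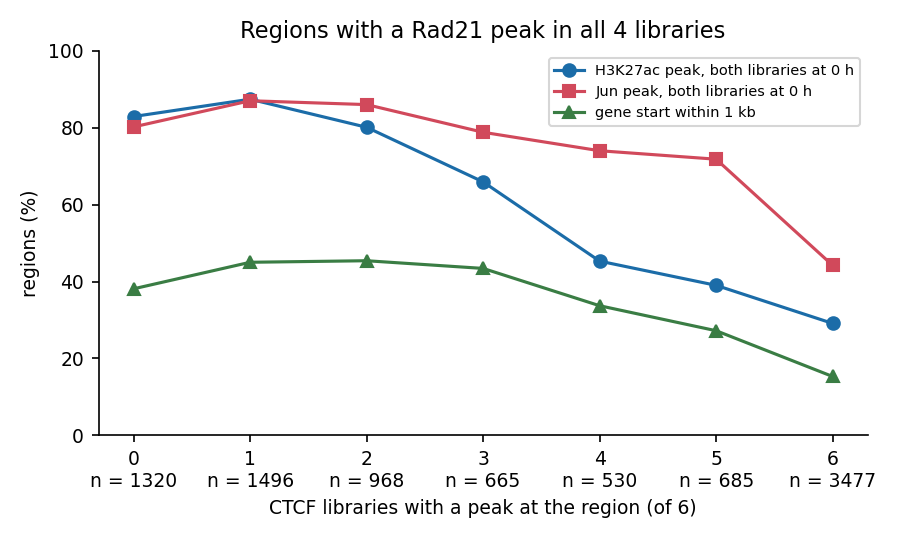
Share of regions with a Rad21 peak in all 4 libraries (%, vertical axis) that had an H3K27ac peak in both libraries at 0 h (circles), a Jun peak in both (squares) or a gene start within 1 kb (triangles), by the number of CTCF libraries with a peak (horizontal axis, with the number of regions). The class without CTCF is the leftmost group (82.9%, 80.2% and 38.1%) and the class with CTCF in 6 libraries the rightmost (29.1%, 44.2% and 15.3%).

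Gene starts were more frequent at the sites than at cohesin sites with CTCF, but not than at regions with a CTCF peak in few libraries. Outside chromosome 8, for which positions were not analysed here, 488 of 1281 sites (38.1%) lay within 1 kb of a RefSeq gene start, against 15.3% of cohesin sites with CTCF and 11.8% of all Rad21 regions. Among regions with 4 Rad21 peaks and a CTCF peak in 1, 2 or 3 libraries the share was higher, at 45%, 45.4% and 43.4%. Protein-coding starts made up most of these, at 437 sites, and starts of long noncoding RNAs were near 145. Another 229 sites (17.9%) lay more than 50 kb from a listed start, and 975 (76.1%) overlapped the span of a gene. The list lacks a start for some genes, so distances are upper limits and the shares within 1 kb are lower limits. The distal class, farther than 1 kb from a listed start, can therefore include promoters. The sites near a start had H3K27ac peaks in all 6 libraries in 83% of cases and the distal ones in 56.7%, whereas Jun peaks in all 6 were found at 37.1% and 48.7%.

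A small group lay on tRNA genes, which RNA polymerase III transcribes and which are known elsewhere as places of cohesin loading. There were 17 such sites (1.33% of 1281), against 0.385% of cohesin sites with CTCF and 0.203% of all Rad21 regions, and they covered 23 of 438 tRNA genes. Regions with a CTCF peak in 1 or 2 libraries held them about as often, with 22 of 1449 and 12 of 943, so they do not set the sites apart. Besides tRNA genes, 7 sites overlapped a small nuclear RNA gene, 5 a microRNA gene and 1 a small nucleolar RNA gene.

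Promoter windows of 250 bases before to 50 after a start could be read for 658 windows that overlapped a site and for 34943 windows in all. SP/KLF strings were found in 70.4% of the former and 44.9% of all, ETS strings in 21.9% and 10.2%, CRE strings in 4.26% and 1.84% and NRF1 strings in 2.89% and 1.23%. AP-1 strings were less frequent at the sites, at 5.02% against 7.72%, and so were GATA strings, at 7.6% against 10.4%. The 5 letters CCCTC, the core of the CTCF motif, were found in 77.5% against 71.2%, and E-box CANNTG strings in 57.6% against 68.7%. In the 10631 windows with an H3K27ac peak in both libraries at 0 h, SP/KLF stood at 71.1%, ETS at 23.2%, CRE at 3.52% and AP-1 at 4.58%, near the shares at the sites. GATA strings were less frequent there than at the sites, at 5.15%, and stood at 5.08% in windows at cohesin sites with CTCF. Median GC content was 63.3% at the sites, 65% in acetylated windows and 58.7% in all.

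H3K27ac was compared over time to ask whether the marks at these sites changed during PMA treatment. It fell at most of them, and by a moderate amount. In a bulk library, fewer cells with a mark and less of it per cell cannot be told apart. The median over the 1334 H3K27ac regions at the sites was 5.05 and 5.10 on the log2(CPM + 0.5) scale at 0 h, 4.58 and 4.66 at 6 h, then 4.52 and 4.58 at 72 h. All later libraries lay below both libraries at 0 h. At 6 against 0 h, edgeR's quasi-likelihood test called 960 of the 1334 regions after Benjamini-Hochberg adjustment, 162 higher and 798 lower, against a background of 58.6% called over all tested regions, 32.3% higher and 26.3% lower. With scaling by total counts the split at 6 h was 314 higher and 519 lower, and the median log2 fold change was -0.11 in place of -0.45, since that scaling moved the median of all regions from 0.20 to 0.53. At 72 against 0 h, 1111 were called, 228 higher and 883 lower, against 81.5% called over all regions, 43.4% higher and 38.1% lower.

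The median log2 fold change at 72 h was -0.60 at the sites and 0.18 over all regions, a gap of -0.78. Scaling by total counts moved these medians to -0.36 and 0.42. Such scaling shifts all regions together, so it could hardly change the gap. With TMM scaling, well covered regions elsewhere had nearly the same values as the sites. Among 10119 tested regions with a mean count at or above the median of the sites, which are deeper than the sites (a median count of 933 against 578), the median log2 fold change was -0.61, and 68.6% were called lower against 66.2% at the sites. Between 6 and 72 h, 827 regions were called, 342 higher and 485 lower, where the background was 63.8% called, 33.1% higher and 30.8% lower. DESeq2 turned this last split, with 373 higher and 337 lower of 710 called.

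Sites near a listed gene start and distal sites, which can include unlisted starts, differed in their split. Near a start, 423 of 515 H3K27ac regions were called lower at 72 h and 29 higher, with a median log2 fold change of -0.72. Cohesin sites with CTCF that lay near a start gave 410 lower and 48 higher of 536. At distal sites 438 of 782 were lower and 190 higher, with a median of -0.47, so rises were mostly distal. No test of the difference between near and distal sites was run.

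**Figure D3:**
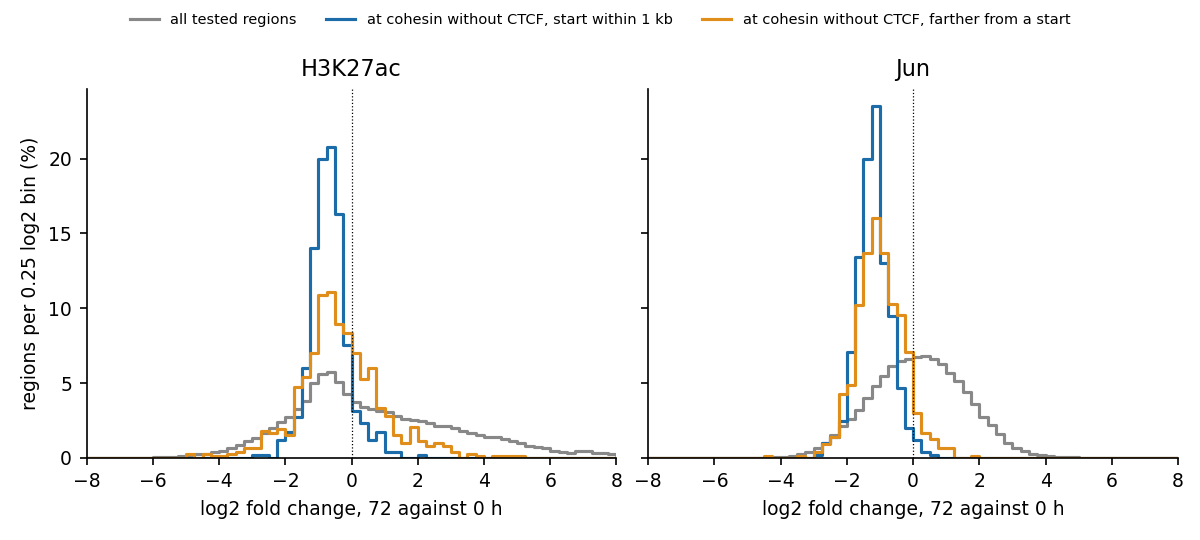
Distribution of log2 fold changes at 72 against 0 h (horizontal axis; share of regions per bin in %, vertical axis) for H3K27ac (left) and Jun (right), over all tested regions (grey) and over regions at cohesin sites without CTCF near a gene start (blue) or farther away (orange). Both site curves peak below 0, with medians of -0.72 and -0.47 for H3K27ac and of -1.22 and -1.03 for Jun; 1033 H3K27ac and 13 Jun regions beyond 8 in either direction, none at a site, are not drawn.

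Extremes of H3K27ac and Jun are named here, at gene starts too, only among called regions with a CPM at or above the median of their table and no overlap between the groups of libraries, so weaker regions can lie beyond them. The strongest H3K27ac gains in that set were far from listed gene starts. Inside the span of TNS4, which encodes a focal adhesion protein, H3K27ac at chr17:40485102-40486858 was 2.39 and 1.95 CPM at 0 h, 20.4 and 18.8 at 6 h, then 53.1 and 56.8 at 72 h. By 6 h this was a log2 fold change of 3.17 (SE 0.17), and by 72 h it reached 4.66 (SE 0.15, adjusted p = 4.57e-19), with no overlap between times. Rad21 at the same site went from 8.96 and 6.97 CPM to 20.2 and 20.7. Jun there rose from 14.3 and 12.6 CPM to 30.2 and 32.8 at 6 h and stood at 26.2 and 20.5 at 72 h. The site was thus higher in all 3 measurements. A larger gain was seen at chr1:223678652-223681276, 13018 bp from the start of the calpain gene CAPN8, where H3K27ac went from 2.39 and 1.11 CPM through 14.8 and 16 to 59.5 and 65.7. Jun at that site was 18.1 and 16.1 CPM at 0 h and 20.4 and 20.2 CPM at 72 h, a change that was not called (adjusted p = 0.278). At chr16:86383745-86384746, 38213 bp from the noncoding gene LINC00917, H3K27ac went from 1.31 and 1.48 CPM through 6.37 and 7.73 to 38.2 and 40.4. Jun had its highest log2 fold change among the regions called higher there, from 5.25 and 4.44 CPM to 17.8 and 15.9 (1.80, SE 0.24, adjusted p = 2.68e-06).

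The strongest losses were also inside gene spans far from listed starts. In EXOC6B, an exocyst subunit gene, H3K27ac at chr2:72543726-72545932 was 76.3 and 71.9 CPM at 0 h, 9.03 and 8.76 at 6 h, then 2.5 and 2.84 at 72 h. The fitted log2 fold change by 72 h was -4.79 (SE 0.14; adjusted p = 6.35e-20), and most of the fall was already seen at 6 h. TMEM272 held another (chr13:51920845-51922067), from 24 and 22.8 CPM through 2.59 and 2.17 to 0.977 and 1.09. In HS3ST4, a heparan sulfate sulfotransferase gene, the region at chr16:25771439-25771888 had the lowest value by 6 h, a log2 fold change of -3.59 with an SE of 0.30 and an adjusted p of 1.54e-10, and Jun at the same site fell from 12.7 and 10.5 CPM to 2.33 and 3.14 at 72 h. Rad21 at the EXOC6B site went from 16.2 and 12.2 CPM to 6.4 and 9.43, and at the HS3ST4 site from 17 and 12.9 CPM to 8.04 and 9.05, both with later libraries below earlier ones, and the rule means that each kept its Rad21 peaks.

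**Figure D4:**
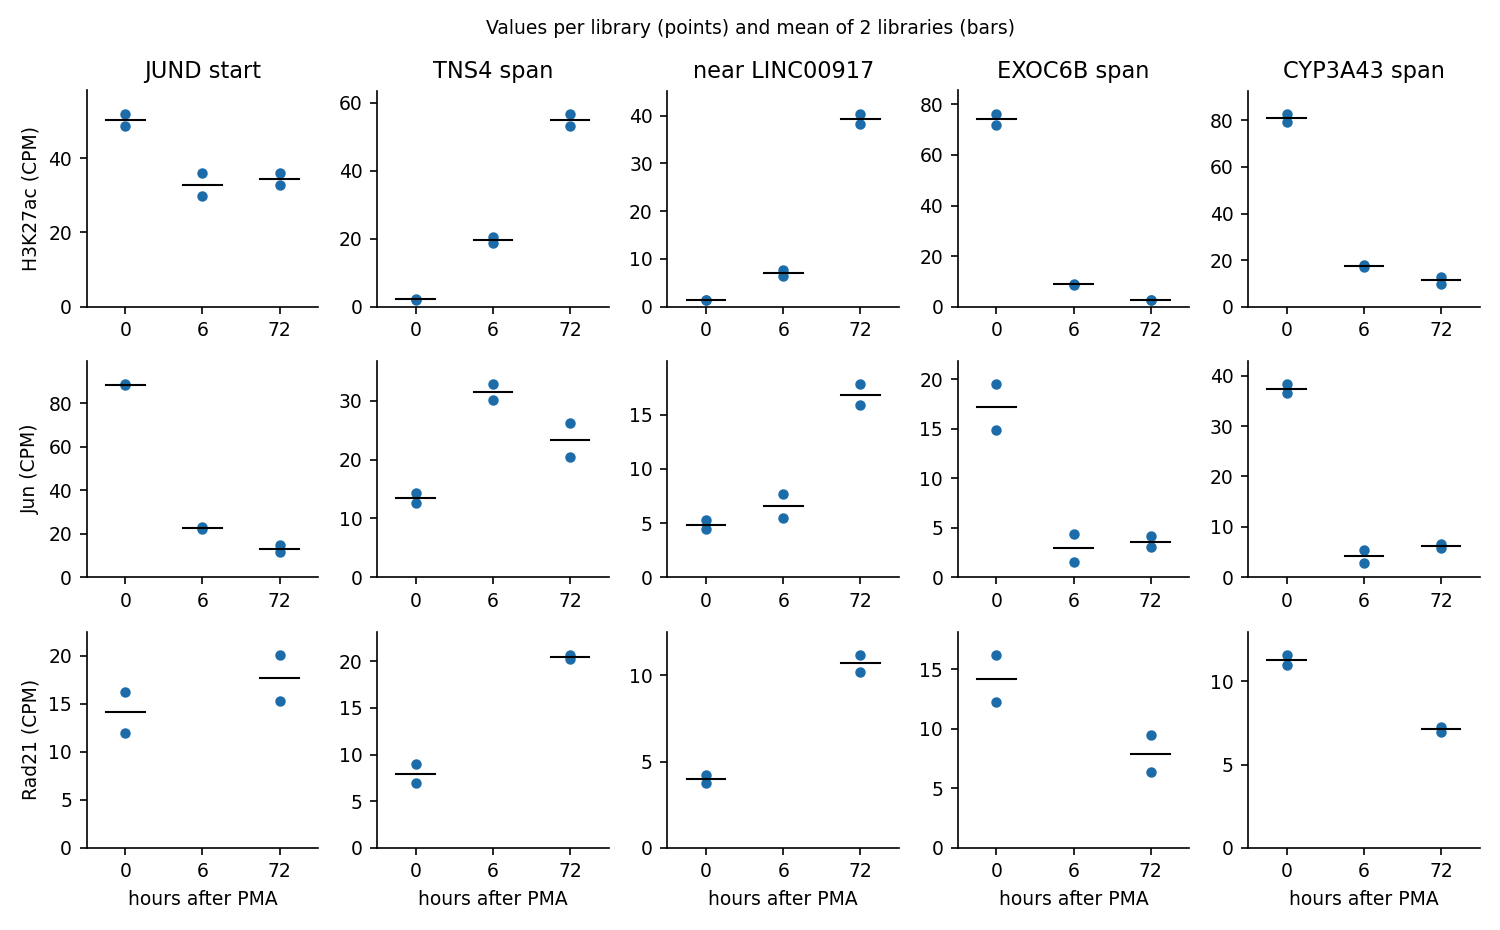
CPM per library (points) and mean of 2 libraries (bars) for H3K27ac, Jun and Rad21 (rows of panels) at 0, 6 and 72 h after PMA (horizontal axis; Rad21 at 0 and 72 h) at 5 sites (columns), each panel with its own vertical axis from 0. H3K27ac rises from 2.39 and 1.95 to 53.1 and 56.8 CPM at the TNS4 site and falls from 76.3 and 71.9 to 2.5 and 2.84 CPM at the EXOC6B site, while Jun at JUND falls from 88.2 and 88.7 to 14.8 and 11.6 CPM.

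At gene starts the extremes were smaller, and they were picked here after the values were seen. The largest gain at a start was at LOC105369774, inside CALCOCO1, from 18.5 and 16.1 CPM to 70.4 and 78.3 (adjusted p = 7.32e-15). PIM1, a serine/threonine kinase gene, had the largest among protein-coding starts, from 18 and 17.4 CPM at 0 h to 35.8 and 39.4 at 6 h, then 35.4 and 39.9 at 72 h. Both later times lay above 0 h at PIM1. Jun at PIM1 was 27.6 and 23.5 CPM at 0 h, 42.9 and 50.2 at 6 h (adjusted p = 0.002) and 20.6 and 20.6 at 72 h (adjusted p = 0.168), a rise at 6 h alone. Starts of the lipid enzyme gene PGS1, the deubiquitinase family gene USP53, the calcium pump gene ATP2B1, the kinesin gene KIF3B and the cyclin gene CCNG2 also gained H3K27ac at 72 h, with log2 fold changes of 0.96, 0.84, 0.82, 0.82 and 0.81. The CCNG2 call was lost without the second replicate at 0 h (adjusted p = 0.0542). Among the starts that lost it, TMEM141 went from 149.7 and 153 CPM to 21.1 and 21.6 (-2.83 on the log2 scale, SE 0.11, adjusted p = 9.41e-18). CAT, the catalase gene, went from 77.9 and 82.5 CPM through 32.6 and 32.4 to 19.4 and 20.6. TMT1A, a methyltransferase gene, went from 113 and 115 CPM through 40.9 and 40.8 to 27.7 and 29.1, and the start of the transcription factor gene SP5 from 18 and 17.2 CPM to 4.56 and 4.08.

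Jun fell at nearly all sites that were called, and the median change was larger in size than for H3K27ac. The median over 1310 Jun regions at the sites on the log2(CPM + 0.5) scale was 4.18 or more in both libraries at 0 h, 3.52 and 3.58 at 6 h, then 3.27 and 3.22 at 72 h. Libraries of the 3 times did not overlap. At 6 against 0 h, 664 regions were called, 28 higher and 636 lower, against a background of 25.3% called, 13.1% higher and 12.2% lower. At 72 against 0 h, 1069 were called, 21 higher and 1048 lower, against 53.7% called over all Jun regions, 28% higher and 25.7% lower. The median log2 fold change was -1.12 at the sites and 0.17 over all regions at 72 h. Scaling by total counts moved these medians to -0.56 and 0.73 and the calls to 72 higher and 667 lower. The gap between the medians was -1.29 under each of the 3 scalings run. Scaling shifts all regions together, so this gap could hardly change and its steadiness is no test.

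Well covered Jun regions elsewhere had another split, although depth was not matched. Among 14879 Jun regions with a mean count at or above the median of the sites (a median count of 191 against 132 at the sites), 45.4% were called lower and the median was -0.32, whereas 80% were called lower at the sites. Cohesin sites with CTCF had the same median as those without, -1.12, with 1806 of 2829 regions lower and 99 higher. Near gene starts, 431 of 494 Jun regions at the sites were called lower at 72 h and 0 higher by edgeR. At an unadjusted p under 0.05 it was 447 lower and 0 higher, and DESeq2 called 405 lower and 0 higher. With CTCF near a start, 405 of 504 were lower and 4 higher. From 6 to 72 h, 496 regions at the sites were called, 57 higher and 439 lower, where the background was 26.2% called, 12.7% higher and 13.5% lower. This last count rests on single libraries and on the scaling, being 94 and 159 without the second or first replicate at 72 h, 327 without the second replicate at 6 h, 288 by DESeq2, and 126 higher against 119 lower when scaled by total counts.

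The start of JUND itself was among the 3 largest Jun losses at 72 h in the set defined above. Jun at chr19:18281437-18282113, which covers the JUND stretch printed above with its CRE string, was 88.2 and 88.7 CPM at 0 h, 22.9 and 22.1 at 6 h, then 14.8 and 11.6 at 72 h. On the log2 scale this was -1.98 by 6 h (SE 0.20) and -2.75 by 72 h (SE 0.19; adjusted p = 4.27e-09), and no libraries of different times overlapped. H3K27ac there fell less, from 52 and 48.7 CPM to 29.9 and 35.9 at 6 h, then 36 and 32.9 at 72 h (log2 fold change -0.55, SE 0.11, adjusted p = 6.8e-05). Rad21 was 16.2 and 12 CPM at 0 h and 20.1 and 15.3 CPM at 72 h, with overlapping libraries.

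The other extremes for Jun were distal, except a rise at 6 h that lay 920 bp from the start of DCAF4. In CYP3A43, a cytochrome P450 gene, Jun at chr7:99833153-99833813 went from 36.6 and 38.3 CPM to 5.45 and 2.92 at 6 h, then 6.66 and 5.73 at 72 h, and H3K27ac from 79.5 and 82.9 CPM to 12.8 and 9.87 at 72 h. Sites in the sphingomyelin synthase gene SGMS1 and in the kinase gene NLK followed at 6 h, with log2 fold changes of -3.03 and -2.84. At 72 h the lowest values in that set were at chr20:26552618-26552954 (-2.92) and chr1:122919948-122920198 (-2.79), neither of which overlapped a tested H3K27ac region. Those are gene-poor places, 343317 and 1522053 bp from a listed start, and Rad21 there had log2 fold changes of 0.12 and 0.03. Jun counts at 72 h were low, at 11 and 18 in the first and 33 and 24 in the second. Replicates at 6 h were unlike, at 38 and 17 and at 44 and 23 counts. How uniquely reads map at these 2 places was not tested. Rises were modest. In FBLN7, a fibulin gene, Jun went from 12 and 10.5 CPM to 30 and 34.1 at 6 h, then 19.7 and 22.6 at 72 h, with both later times above 0 h. Rises at 6 h near DCAF4 (log2 fold change 1.40, adjusted p = 0.0113) and at chr1:8169490-8169707 (1.39, adjusted p = 0.0134) were lost under DESeq2, with adjusted p of 0.0614 and 0.0719. Both were also lost without the second replicate at 6 h, with adjusted p of 0.291 and 0.0759, and each without 1 replicate at 0 h.

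At gene starts the largest Jun losses after JUND in the same set, again picked after the values were seen, were at SCYL2 and DEPDC4 (log2 fold change -2.65), the helicase gene DDX10 (-2.64), the dipeptidase gene CNDP2 (-2.51) and ZC3H4 (-2.51). ISCU, a scaffold for iron-sulfur cluster assembly, TSTD2, and the shared start of the centromere gene CENPN and CMC2 followed with -2.38, -2.35 and -2.30. At CNDP2 Jun went from 24.6 and 21.2 CPM to 3.85 and 4.16, while H3K27ac was 13.5 and 14.8 CPM at 0 h and 11.4 and 12.7 at 72 h, a difference that was not called (adjusted p = 0.122). Losses of Jun and of H3K27ac were therefore not of the same size at single promoters.

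Across sites the marks moved in the same direction more often than not, while falls prevailed in each mark alone. Each site was given its strongest region of each antibody, which left 1237 sites with both marks. At 72 against 0 h, 747 sites were lower in H3K27ac and in Jun, 21 were higher in both, 103 were higher in H3K27ac and lower in Jun, and none was lower in H3K27ac and higher in Jun. Pearson's r between the log2 fold changes was 0.59 over these 1237 sites and 0.60 over 1863 cohesin sites with CTCF. It describes sites that share libraries and scaling and carries no test. Each mark alone was called lower at most sites, at 836 of 1260 for H3K27ac and 1037 of 1284 for Jun. These falls alone bring many sites lower in both, and the joint counts were not tested against them.

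Rad21 changed little as a class, and its values are given as a description because Rad21 peaks chose the sites. The median log2 fold change at 72 against 0 h was -0.06 (quartiles -0.39 and 0.22, from -2.67 to 1.81), with 585 sites above 0 and 735 below. edgeR called 170 of the 1320, 38 higher and 132 lower, beside 23.3% called over all tested Rad21 regions, 15.4% higher and 7.91% lower. The split turned to 71 higher and 39 lower without the first replicate at 0 h and was 24 higher and 224 lower when scaled by total counts. Without the first or second replicate at 72 h, 45 and 47 were called, and DESeq2 called 75. Of the sites, 1319 are labelled static and 1 down in the authors' deposited table.

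Where acetylation rose, cohesin tended to be higher, and the reverse. Sites called higher in H3K27ac had a median Rad21 log2 fold change of 0.31 (n = 220), those called lower -0.17 (n = 836) and those not called 0.03 (n = 204). At cohesin sites with CTCF the same medians were 0.13, -0.25 and 0.05. Over the 1260 sites with both values Pearson's r between the Rad21 and H3K27ac log2 fold changes was 0.53 (Spearman's rho 0.44), against 0.32 over 2061 cohesin sites with CTCF. For Rad21 and Jun r was 0.36 over 1284 sites, against -0.27 over 2714 with CTCF. These are correlations across sites of the same libraries, given as a description.

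**Figure D5:**
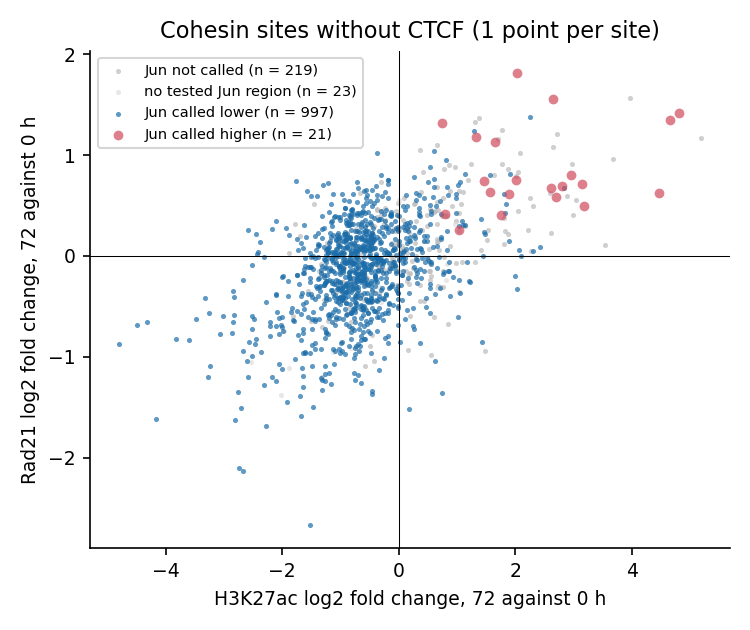
Log2 fold change at 72 against 0 h of Rad21 (vertical axis) against that of H3K27ac (horizontal axis), 1 point per cohesin site without CTCF with both values (n = 1260), coloured by the call for Jun. The 21 sites called higher for Jun (large red points) lie at positive values on both axes, while those called lower for Jun (blue, n = 997) spread mostly to the left of 0.

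The 21 sites where Jun was called higher at 72 h were looked at together after their values were seen. DESeq2 called only 10 Jun regions at the sites higher, so this group depends on the method. H3K27ac was called higher at 21 of 21, with a median log2 fold change of 2.03 (0.74 to 4.81). Over all sites 17.1% of H3K27ac regions were called higher, at distal sites 24.3% and over all tested regions 43.4%. The Rad21 log2 fold change was above 0 at 21 of 21, with a median of 0.71 (0.26 to 1.81), beside 585 of 1320 over all sites. At the 97 cohesin sites with CTCF called higher for Jun the Rad21 median was 0.29. None lay within 1 kb of a listed gene start, the distances being 3314 to 198954 bp with a median of 31116 bp. They include sites in the spans of TNS4, FBLN7, the adhesion receptor gene ADGRV1, the mucin gene MUC12, the ceramide synthase gene CERS6, the tubulin gene TUBA1C and the Polycomb gene PHC2. Jun had been called higher at 11 of them at 6 h and lower at 2. The largest Rad21 value among them was in ADGRV1 (chr5:90940223-90940968), from 13.2 and 9.5 CPM to 42.7 and 37.5, where Jun went from 2.04 and 0.86 CPM to 3.04 and 3.69.

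Other sites with a large Rad21 difference, likewise picked by value, followed the same pattern in H3K27ac. In AFAP1, an actin-binding protein gene, Rad21 at chr4:7831083-7831763 was 6.6 and 6.97 CPM at 0 h and 23.2 and 16.8 CPM at 72 h, and H3K27ac went from 6.93 and 5.48 CPM to 88.9 and 104. Jun at that site was not called (log2 fold change 0.45, adjusted p = 0.0561). The lowest Rad21 value was in LMBR1 (chr7:156886108-156886905), from 74.7 and 51.3 CPM to 10.1 and 9.61, a log2 fold change of -2.67 (SE 0.27). This is the site labelled down in the authors' deposited table, which gives a log2 fold change of -2.50 and an adjusted p of 3.45e-12. H3K27ac at LMBR1 went from 4.43 and 6.27 CPM to 2.17 and 1.57, and Jun from 5.83 and 8.46 to 2.66 and 3.52. At chr12:33587761-33588792, far from any listed start, Rad21 went from 48.1 and 26.8 CPM to 10.1 and 14.5 and H3K27ac from 137 and 146 CPM to 8.76 and 7.03. Both of these sites kept a Rad21 peak in all 4 libraries, as the rule asks.

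CTCF counts at the sites are a description too, since the absence of CTCF peaks chose them. The count filter kept 614 of the 636 overlapping regions. At 6 against 0 h edgeR called 0 of them (45 at an unadjusted p under 0.05, 32 higher and 13 lower, and 0 by DESeq2), beside 2.65% over all CTCF regions. At 72 against 0 h it called 9, all higher (125 higher and 2 lower unadjusted, 0 by DESeq2), beside 6.79%. At 72 against 6 h 1 was called, higher, beside 2.18%. The median log2 fold change at 72 h was 0.80 at the sites and 0.03 over all CTCF regions, while at cohesin sites with CTCF it was -0.31. Counts there were low, with a median over regions of 14.2 per library, and 0 were called when any 1 library at 0 h or 72 h was left out.

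The gene lists held few of the sites, and each list gene with a site was called lower in both marks at 72 h. So were 82.1% of H3K27ac and 87.2% of Jun regions at all sites near a listed start. Over all sites the shares were 66.2% and 80%, and over all tested regions 38.1% and 25.7%. Of 30 erythroid genes 1 had a site within 1 kb of its start, UROD, an enzyme of heme synthesis. Of 25 megakaryocyte and platelet genes 3 did, namely ITGA2B, the collagen receptor gene GP6 and RUNX1, a transcription factor of blood cells. The list of 21 AP-1 and early response genes gave JUND, and the 13 genes of cohesin, its loader and its regulators gave SMC1A. From 2 lists added after values were seen, RPS16 and RPS24 were found among 69 ribosomal protein genes, and H2AC15 and H2BC15 among 59 histone genes. Over 15843 protein-coding genes the share with a site was 3.23%, and no list was tested. In the erythroid, platelet, AP-1 and cohesin lists 13, 8, 4 and 1 genes had no promoter window in the RefSeq table and were placed by their span.

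ITGA2B and GP6, both expressed in the platelet lineage that PMA is used to induce, lost marks at these sites, as most sites near a listed start did. ITGA2B had H3K27ac at 69.9 and 71.7 CPM at 0 h, 27 and 34.8 at 6 h, then 46.5 and 47.8 at 72 h. Both later times lay below 0 h, by -1.19 on the log2 scale at 6 h (SE 0.12) and -0.59 at 72 h (SE 0.11; adjusted p = 3.06e-05). Rad21 at the ITGA2B start was 24.5 and 16.9 CPM at 0 h and 12.5 and 11.1 CPM at 72 h. GP6 went from 74.3 and 80 CPM of H3K27ac through 34.1 and 34 to 37.1 and 36.2, and its Jun from 42.9 and 51.3 CPM through 15.7 and 17.3 to 16.5 and 15.9. Rad21 at GP6 was 17.1 and 15.4 CPM before and 16.1 and 16.4 after. RUNX1 went from 59.1 and 60.9 CPM of H3K27ac to 35.3 and 37.4 at 72 h. A single region per gene is read here, and other regions of these genes that hold no such site are not covered.

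SMC1A, whose product is part of the ring that marks the sites, had Rad21 at 18.9 and 12.2 CPM at 0 h and 15.3 and 16.8 CPM at 72 h over its shared start with RIBC1. H3K27ac there went from 26.8 and 24.7 CPM to 16.6 and 13.9 (log2 fold change -0.75, SE 0.12, adjusted p = 4.53e-06). Jun went from 9.63 and 9.75 CPM to 2.71 and 3.9 (log2 fold change -1.54, SE 0.26, adjusted p = 4.47e-05). UROD had H3K27ac at 137 and 140.1 CPM at 0 h and 80.4 and 86.1 CPM at 72 h. At RPS16 H3K27ac went from 36.2 and 37.6 CPM through 31 and 28.4 to 16.5 and 17.2, so that most of this fall came after 6 h. The Jun calls at RPS16, RUNX1 and ITGA2B were lost when libraries were scaled by total counts (adjusted p of 0.126, 0.0605 and 0.0563), and that at RPS16 also without the first Jun replicate at 72 h (0.0594).

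At the 17 tRNA sites, a group chosen after values were seen, Jun fell and no change of Rad21 was called. The median Jun log2 fold change at 72 h was -1.09, near the -1.12 over all sites. Jun was called lower at 16 of 17 regions (94.1%) and higher at 0, against 80% lower over all sites and 25.7% over all tested regions. At an unadjusted p under 0.05 it was 17 lower and 0 higher, and DESeq2 called 15 lower and 0 higher. H3K27ac was called lower at 12 of 20 regions and higher at 3, against 66.2% lower over all sites and 38.1% over all tested regions. The median Rad21 log2 fold change was 0.28, and edgeR called 0 of 17, with 1 higher and 0 lower at an unadjusted p under 0.05 and 0 by DESeq2. The cluster of tRNA and histone genes on chromosome 6 held 6 of these sites, among them TRR-ACG1-1 with TRS-AGA2-1 at chr6:26327352-26328500, where Rad21 was highest of the 17, at 34 and 30 CPM at 0 h and 42.6 and 34.9 CPM at 72 h. Jun over this pair fell from 40.3 and 50.2 CPM to 22.4 and 19.9 CPM, while H3K27ac was 45.6 and 44 CPM at 0 h and 39.6 and 46.8 CPM at 72 h. The largest Jun fall was at TRT-CGT1-1 (chr6:28489042-28489522), from 25.5 and 26.8 CPM to 6.47 and 6.54 CPM (adjusted p = 6.07e-08).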

How the data were processed

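CUT&RUN libraries of K562 cells, 2 per group, were read from tables of counts per region, 1 table per antibody, and from a peak list per library. Per the submitters' processing notes, Trim Galore 0.4.3, BWA 0.7.17, SAMtools 1.9, deepTools 3.0.1, MACS2 and bedtools 2.26 were used and the builds hg19 and hg38 are named. The contigs and coordinates in the files are those of hg38. The deposited counts are whole numbers per region, not normalized by the authors. The authors' peak lists, as deposited, give each peak's fold enrichment and its −log10 p and −log10 q, of which −log10 q was used here to describe or filter peaks. The authors' Rad21 table also gives their log2 fold change and adjusted p-value, copied here for 1 site.

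Sites were found with bedtools 2.31.1 and Python 3.11.15 (pandas 2.3.3). Counts of each whole table were filtered with filterByExpr, scaled by TMM and tested with edgeR 4.0.16 in R 4.3.3 (quasi-likelihood test over all time points of an antibody, no block), and p-values were adjusted by Benjamini-Hochberg over all tested regions, with calls at 0.05. Log2 fold changes and their SE come from this fit, and adjusted p-values in the text are from it unless DESeq2 1.42.0 is named. The edgeR fit was tested on simulated counts of each antibody, at 72 against 0 h. Named regions are the 5 highest in Rad21 per kb and, for H3K27ac and Jun, the 3 largest called rises and falls at 6 h and at 72 h among regions at or above the table's median level whose groups do not overlap. Gene starts with extreme values, Rad21 extremes, tRNA sites and the 21 Jun sites were picked after values were seen. The sites and gene lists were chosen with earlier results of these data known. Alternatives were DESeq2, total-count scaling, no filter or a stricter one, other peak and overlap thresholds, the replicate number as a block and leaving out each library. Same-numbered libraries did not pair, since the correlation of their deviations from the group means lay between -0.00285 and 0.132. Sequences on chromosome 8 and in regions without a promoter window were not used here.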

Additional observations from a re-analysis of the deposited data

Results flagged for a closer look

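Besides the sites on chromosomes 1 to 22 and X, 12 regions met the same peak rule on the mitochondrial genome, unplaced contigs or another chromosome left out of the sites. They drew attention because they hold Rad21 counts and peaks but were not described among the sites. The Rad21 fit used the whole table, so they took part in its totals, scaling and background. Whether their counts reflect cohesin was not tested. Their Rad21 counts had medians of 72.5 and 54 at 0 h and 85.5 and 87.5 at 72 h, near the medians of the sites (83, 55, 80 and 62), but the highest region held 152095 and 75319 before PMA, then 154580 and 122360 after 72 h. No control antibody library was used here to set beside these counts.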

How the results depend on the processing

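The counts of called H3K27ac and Jun regions at 6 and 72 against 0 h stayed within 1.5 times under every scaling, filter, DESeq2, block and left-out library, while the Jun counts at 72 against 6 h, the Rad21 counts and the CTCF counts did not. With DESeq2 the calls were 710 for H3K27ac at 72 against 6 h, where higher outnumbered lower, 288 for Jun at 72 against 6 h, 75 for Rad21 and 0 for CTCF at 72 against 0 h. Total-count scaling gave 245 for Jun at 72 against 6 h, with higher outnumbering lower, and 66 for CTCF. A mean count of at least 50 gave 0 for CTCF, only both time points 61 and the replicate block 27. Leaving out 1 library gave 94 to 539 calls for Jun at 72 against 6 h, 45 to 221 for Rad21 (110 without the first replicate at 0 h, with the direction turned) and 0 to 53 for CTCF. With the replicate number as a block the calls were 981, 1123 and 871 for H3K27ac, 643, 1058 and 464 for Jun and 236 for Rad21.

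Requiring no CTCF table region within 1 kb left 602 sites, with 439, 497 and 392 H3K27ac calls at 6 against 0, 72 against 0 and 72 against 6 h, 307, 460 and 187 Jun calls and 103 Rad21 calls. Their shares with H3K27ac and Jun peaks in both libraries at 0 h and with a gene start were 79.4%, 76.2% and 31.3%. The rule without the second CTCF replicate at 72 h, added after seeing the data, gave 2445 sites, 1813, 2097 and 1570 H3K27ac calls, 1170, 2056 and 1029 Jun calls, 288 Rad21 and 66 CTCF calls and shares of 85.7%, 84% and 41.6%. Leaving out 1 Rad21 library from the rule gave 1696 to 2310 sites. The H3K27ac share was 75.3% to 82.4% then, 70.5% at a −log10 q of at least 10, 67.7% when an overlap of at least 0.5 of the shorter was asked, and 84.2% or 85.8% from 1 library. The Jun share was 75.9% to 77.8%, 81.6% with Rad21 peaks at a −log10 q of at least 5, 60.4% at 10, and 84% or 85.5% from 1 library. The gene start share was 34.6% to 36.5%, and 45.1% at 5 kb.

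Of 761 values of named regions under alternatives, 746 kept their call, 15 lost it and 0 turned. The cause of these differences was not tested. CTCF values at the sites rest on few counts and the Jun libraries at 6 h are the shallowest of that antibody.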
